A study of Mus musculus with 8 samples.

Results

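The lysosome, its proton pump and the transcription factors that govern its genes were followed as a set of 38 genes in double positive (DP) thymocytes, out of 55359 genes in the tables. The genes were taken by symbol and divided by role into 6 regulators, 4 membrane proteins, 12 hydrolases and saposins, and 16 genes of the V-ATPase (6 of V0, 8 of V1 and 2 accessory). All 38 symbols were found in the tables. RNA was sequenced from CD4 and CD8 double positive thymocytes of mice aged 5 weeks, sorted for surface TCR beta from absent to intermediate. The 4 Lck-cre samples (replicates 5 to 8) carried LSL-Sting1-N153S, an allele of STING with a gain-of-function substitution behind a stop cassette between loxP sites, together with Cre recombinase driven by the Lck promoter, which is active in the T cell lineage. The 4 control samples (replicates 1 to 4) carried LSL-Sting1-N153S/+ and no Cre, so both groups carried the conditional allele. The number of its copies in the Lck-cre samples is not stated. The female sample was replicate 5 among the Lck-cre samples and replicate 1 among the controls, and the other 3 of each group were male. No source used here says that the samples were separate animals, and their spread, on which the p-values rest, may therefore be technical.

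Lysosomes digest material delivered by endocytosis and autophagy, with acid hydrolases that work at the low pH made by the V-ATPase. The pump has a membrane sector, V0, that carries protons, and a cytosolic sector, V1, that hydrolyses ATP. TFEB and TFE3, of the MiT family of basic helix-loop-helix leucine zipper proteins, bind E-box sequences in lysosomal promoters. When nutrients are plentiful they are phosphorylated by mTORC1 at the lysosome with the help of folliculin (FLCN) and its FNIP partners, which holds them in the cytosol. In cultured cells STING activation is known to bring GABARAP to perturbed membranes, where it sequesters the FLCN complex and lets TFEB enter the nucleus. RNA levels do not report where a protein is in the cell.

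The sequence that TFEB and TFE3 recognise is built on CACGTG. Promoter windows of 300 bases, 250 before and 50 after an annotated start (RefSeq, GRCm38.p6), matched 32 of the 38 genes by symbol. The core CACGTG, which reads the same on both strands, stood in at least 1 window of 13 of these 32 (40.6%), against 12.4% of 8394 matched genes that were tested for expression. The longer form TCACGTGA, which contains CACGTG and is also the same on both strands, stood in 7 of 32 genes (21.9%), against 2.55% of the tested genes. Counted by window, it stood in 17.1% of the 41 windows of the set, against 0.974% of all 32851 windows, of tested genes or not. The 7 genes were Mcoln1, Ctsa, Ctsd, Gla, Atp6v0d1, Atp6v0e and Atp6v1a. The windows of Tfeb, Tfe3, Mitf, Flcn and Fnip2 held no CACGTG. Stretches of 30 bases around the longer form, in capitals, are shown for 2 genes that were higher in Lck-cre cells (Gla and Atp6v1a) and 2 that were not called (Ctsd and Mcoln1), to set the letters beside the values below. All are written 5′ to 3′ on the gene's strand. A match in letters is a description and not evidence of binding.
Gla, first site, chrX:134601215-134601244, minus strand, 228 bases before the start: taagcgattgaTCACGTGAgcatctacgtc
Gla, second site, chrX:134601182-134601211, minus strand, 195 bases before the start: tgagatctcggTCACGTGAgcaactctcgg
Atp6v1a, chr16:44139373-44139402, minus strand, 132 bases before the start: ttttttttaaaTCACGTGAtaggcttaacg
Ctsd, chr7:142387908-142387937, minus strand, 99 bases before the start: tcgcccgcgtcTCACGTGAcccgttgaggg
Mcoln1, chr8:3500462-3500491, plus strand, 46 bases before the start: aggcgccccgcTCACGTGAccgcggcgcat

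The tables give FPKM, fragment numbers scaled for gene length and for the size of the library. Ranks of genes by FPKM were not always those by the deposited mean coverage per base. In Lck-cre samples Tfeb lay above Gla by FPKM, but at a coverage of 1.4 to 2.74 against 14.6 to 17.3 for Gla. Levels of different genes are therefore compared by FPKM only, unless coverage is named. They hold no read counts, so the total depth is unknown. Between 12177 and 12342 genes per sample had an FPKM of at least 1. Sting1, the targeted gene, lay at 85.4 to 232 FPKM in Lck-cre samples and at 11.6 to 15.3 FPKM in controls. Genes listed as markers of DP thymocytes, not all of them particular to that stage, were high in both groups. The 10 markers, among them Cd4, Cd8a and Rag1, summed to 4290 to 5530 FPKM in Lck-cre samples and 5520 to 5910 FPKM in controls. Of these 10, Cd4, Rag1, Rag2 and Themis fell by limma, with log2 changes of -0.47, -0.59, -0.51 and -0.21, and Ptcra, the pre-T cell receptor alpha chain, rose by 0.49 (adjusted p = 0.0107). In these bulk samples fewer cells of a type and less RNA per cell cannot be told apart.

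Tfeb RNA was 2.55-fold higher in Lck-cre cells and Tfe3 RNA 1.39-fold higher, while the 5 cathepsin genes, Lamp1, Lamp2 and the saposin precursor Psap were not called in either direction. Of the 34 genes that passed a minimum of 1 FPKM in at least 4 samples, 7 (20.6%) rose in Lck-cre cells and 0 fell at an adjusted p under 0.05 by limma. Over all 12337 genes tested, 15.4% rose and 10.4% fell, 25.8% in all, so the share of rises in the set lies near that of all genes. No gene of the set fell at an unadjusted p under 0.05 either, and 8 rose. The shares of all genes at that unadjusted level are not given, so such counts are descriptions. The median log2 change of the 34 was 0.031, beside 0.012 over all genes tested. The groups did not overlap in 9 of the 34 (26.5%), against 29.4% of all genes tested. The lowest single value among the 34 genes was 1.54 FPKM, so none passed the minimum through 1 group alone. With the deposited TPM in place of FPKM, 4 of the 34 rose (Tfeb, Tfe3, Gusb and Atp6v1h) and 3 fell (Mcoln1, Neu1 and Atp6v0b), and over all genes the share of calls that were rises was 38.6% in place of 59.8%.

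**Figure D1:**
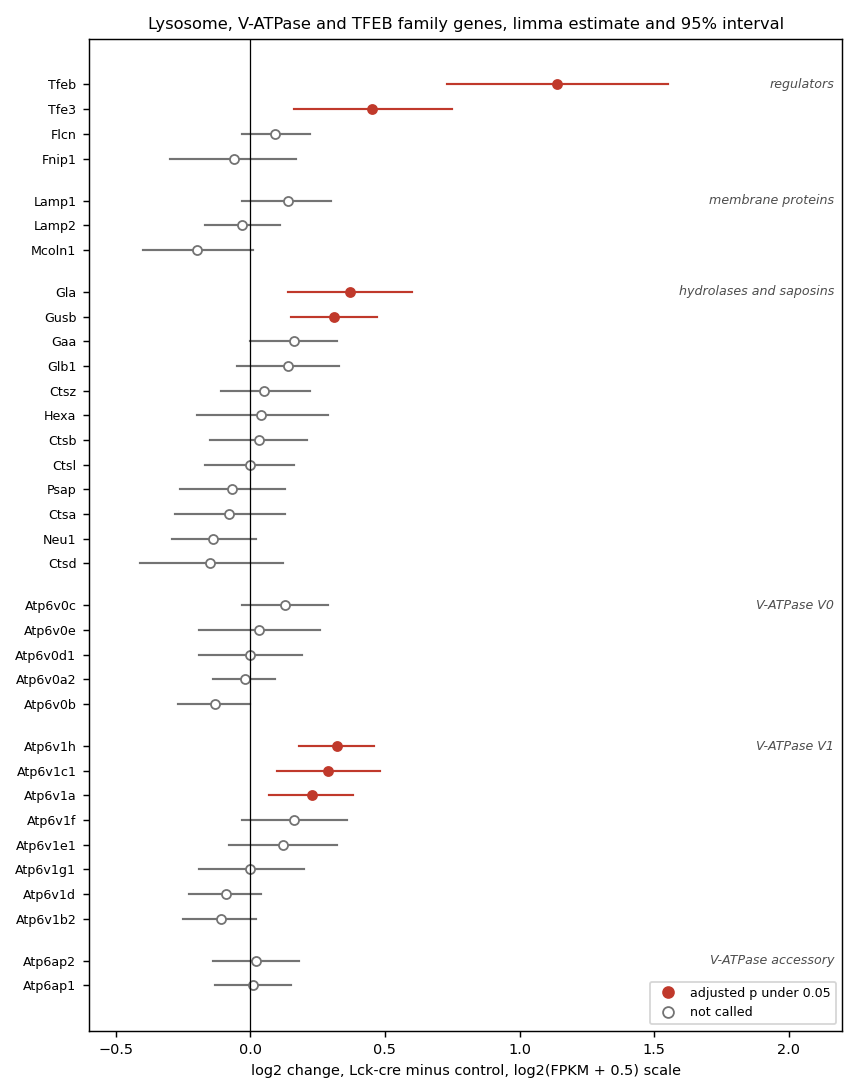
Log2 change (Lck-cre minus control, log2(FPKM + 0.5) scale) of the 34 tested genes by role, with 95% intervals from limma. The 7 filled points passed an adjusted p of 0.05, led by Tfeb at 1.14, and the 27 open points lie between -0.20 and 0.16.

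Among the regulators, Tfeb changed most. Gene positions are given as listed, in a build that no source used here names. They are not on the GRCm38.p6 numbering of the promoter stretches above, so those positions cannot be set beside them. Tfeb, listed on the plus strand of chromosome 17 from 48047955 to 48103344, lay at 5.68, 4.01, 4.61 and 8.03 FPKM in Lck-cre replicates 5 to 8, against 2.05, 2.09, 2.37 and 2.24 FPKM in control replicates 1 to 4. The groups did not overlap, and the spread was wider in Lck-cre cells, with a mean of 5.58 ± 1.77 FPKM against 2.19 ± 0.147 FPKM (SD, n = 4 each). Tfeb was higher by 1.14 on the log2 scale (SE 0.18, with 0.73 to 1.55 as the 95% confidence interval), and limma gave an adjusted p of 0.00765. It passed under each of 17 alternative settings, with log2 changes of 0.95 to 1.27 and adjusted p of 0.00209 to 0.0461. The lowest of these changes, 0.95, came without Lck-cre replicate 8. Leaving out either female (control replicate 1 or Lck-cre replicate 5) compares in effect the males only, so those settings and the males-only one are not separate tests. Tfeb was still a low transcript: the deposited mean coverage per base was 1.4 to 2.74 in Lck-cre samples and 0.686 to 0.834 in controls.

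The order of the Lck-cre samples in Tfeb, with replicate 6 lowest, then 7, then 5, and replicate 8 highest, was also their order in Sting1, which lay at 221, 85.4, 130 and 232 FPKM in replicates 5 to 8. This order was not particular to Tfeb. Tfe3 had it as well, and the sum of the DP thymocyte markers had it in reverse, at 4620, 5530, 4990 and 4290 FPKM in replicates 5 to 8. RNA of macrophage markers was higher in Lck-cre samples too. Their order differed from that of Tfeb only in that replicate 5 (1.26 FPKM summed) lay below replicate 7 (1.6 FPKM). The 12 markers summed to 0.887 to 3.02 FPKM in Lck-cre samples and 0.321 to 0.454 FPKM in controls, with replicate 6 lowest and replicate 8 highest, and 9 of the 12 had a higher mean in Lck-cre cells. Every one of the 12 stayed under 1 FPKM in each sample, and Marco and Vsig4 were listed at 0 throughout. The receptors Csf1r and Adgre1 reached 0.0626 and 0.0608 FPKM at most in Lck-cre cells. Of the other lists, 11 dendritic cell markers summed to 9.42 to 17.2 FPKM in Lck-cre samples and 5.71 to 6.74 FPKM in controls. Most of that sum came from H2-Ab1, Cd74, H2-Aa and Ccr7, and the other 7 stayed under 1 FPKM in each sample. H2-Ab1, Cd74 and H2-Aa were called higher by limma (log2 changes of 0.73, 1.65 and 1.17), and Ccr7 was not called (-0.27). The 6 B cell markers summed to 7.86 to 15.5 FPKM and 12.4 to 16.9 FPKM, and 9 thymic epithelial markers to 7.33 to 10 FPKM and 7.62 to 8.99 FPKM. Most of the epithelial sum came from Epcam and Ccl25, which were not called. Means were higher in Lck-cre cells for 9 of 11 dendritic, 2 of 6 B cell and 7 of 9 epithelial markers. The same held for 5 of 6 stromal and endothelial and 4 of 5 erythroid markers. All 5 erythroid and 4 of the stromal and endothelial markers stayed under 1 FPKM in each sample. The part of such cells in the Tfeb values was not tested.

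**Figure D2:**
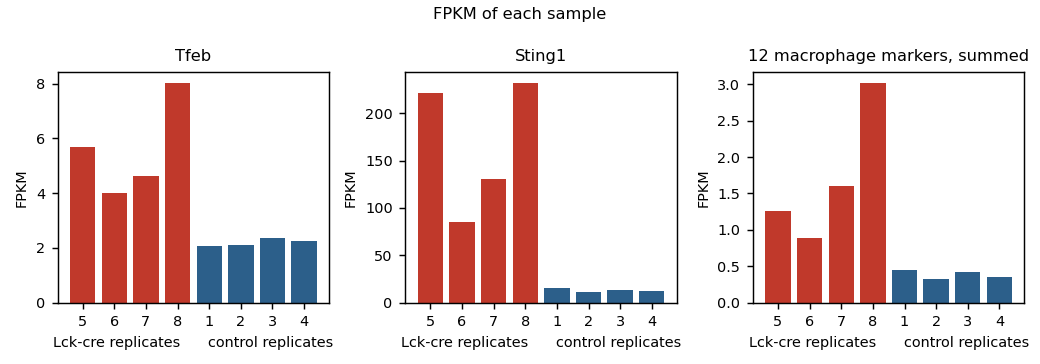
FPKM of Tfeb, of Sting1 and of 12 macrophage markers summed, in Lck-cre replicates 5 to 8 (red) and control replicates 1 to 4 (blue). Each measure is lowest in replicate 6 and highest in replicate 8 within the Lck-cre group, on axes that reach about 8 FPKM for Tfeb and 3 for the marker sum.

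Tfe3 (chromosome X, plus strand, 7628799 to 7641441 as listed), which shares the DNA sequence preference of TFEB, lay at 8.18, 6.96, 7.45 and 9.47 FPKM in Lck-cre replicates 5 to 8, against 6.68, 4.93, 6.63 and 4.77 FPKM in control replicates 1 to 4. The lowest Lck-cre sample lay just above the highest control. The log2 change was 0.45 (SE 0.13, adjusted p = 0.0342 by limma). This call ended when control 1, 2 or 4 or Lck-cre 5, 7 or 8 was left out (adjusted p of 0.0677 to 0.0984) and with no filter on low values (0.108). The ratio of Tfeb to Tfe3 in FPKM was 0.576 to 0.848 in Lck-cre samples and 0.306 to 0.47 in controls. Tfe3 was thus the more abundant RNA in both groups. By mean coverage per base Tfe3 lay further above Tfeb, at 15.2 to 18.6 in Lck-cre samples and 10.1 to 14.0 in controls. The FPKM ratio was chosen after its values were seen and is given as a description.

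Mitf, the third family member, stayed under the minimum, at 0.36, 0.395, 0.397 and 0.616 FPKM in Lck-cre replicates 5 to 8, against 0.228, 0.207, 0.2 and 0.252 FPKM in control replicates 1 to 4. The groups did not overlap. By the exact two-sided permutation test p was 0.0286, and no smaller p can come from 4 samples against 4. It was 0.0571 when adjusted over the 4 genes under the minimum. Tfec, the fourth member, was at or near 0, with its highest value in Lck-cre replicate 8.

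The FLCN complex showed no called change. Flcn, the folliculin subunit, lay at 27.6, 25.7, 25.5 and 25.8 FPKM in Lck-cre replicates 5 to 8, against 24.3, 25, 24.1 and 24.6 FPKM in control replicates 1 to 4. The groups did not overlap, but the log2 change was 0.09 (95% confidence interval -0.03 to 0.22, adjusted p = 0.234 by limma). Fnip1, its main partner by level, averaged 4.59 ± 0.575 and 4.8 ± 0.366 FPKM in Lck-cre and control cells (SD, n = 4 each). Fnip2 was scarce, at 0.309, 0.202, 0.254 and 0.362 FPKM in Lck-cre replicates 5 to 8, against 0.111, 0.189, 0.168 and 0.156 FPKM in control replicates 1 to 4. It did not overlap between groups (exact permutation p = 0.0286, or 0.0571 adjusted over 4 genes), and did overlap with TPM values (exact permutation p = 0.0571).

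**Figure D3:**
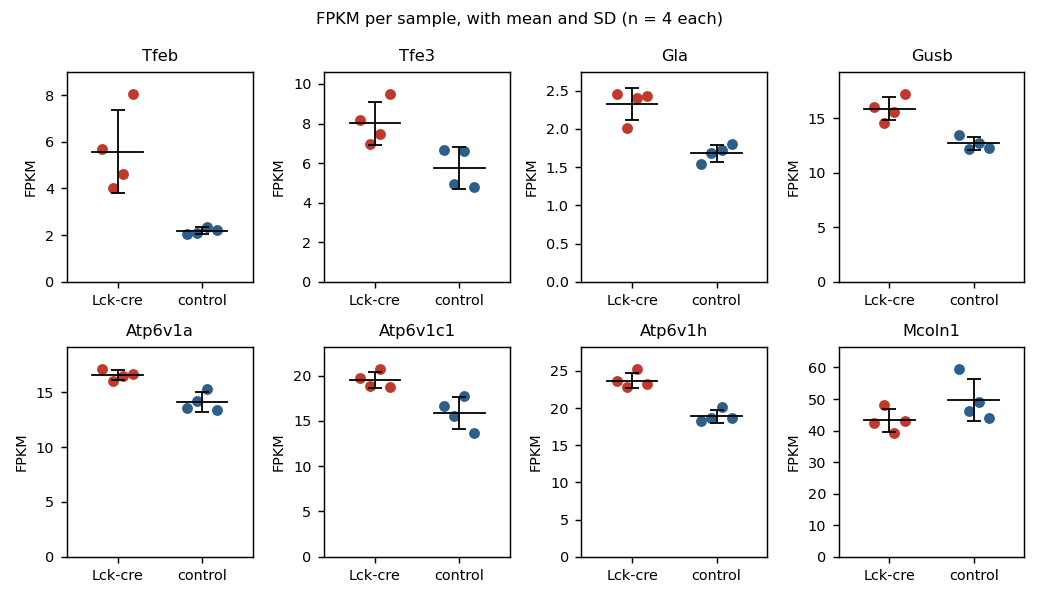
FPKM of each sample, with mean and SD (n = 4 each), for the 7 genes called higher in Lck-cre cells and for Mcoln1, which was not called. In each of the 7 the lowest Lck-cre sample lies above the highest control, while the groups overlap in Mcoln1.

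Lysosomal membrane proteins showed no call in 3 of 3 tested genes by limma, and 0 of these reached an unadjusted p under 0.05. Mcoln1, the calcium-permeable channel TRPML of the lysosome, lay at 42.5, 48.0, 39.1 and 43.1 FPKM in Lck-cre replicates 5 to 8, against 59.4, 46.2, 49.2 and 44.1 FPKM in control replicates 1 to 4. The groups overlapped, with control replicate 1 highest. The log2 change was -0.20 (95% confidence interval -0.40 to 0.01, adjusted p = 0.136 by limma). It was called lower with TPM values, at -0.27, and without Lck-cre replicate 6, also at -0.27 (adjusted p = 0.0404). Its promoter holds the TCACGTGA site shown above. Lamp1 and Lamp2, the main glycoproteins of the lysosomal membrane, had log2 changes of 0.14 (95% confidence interval -0.03 to 0.30) and -0.03 (-0.17 to 0.11). Gpnmb, a glycoprotein known to mark macrophages under lysosomal stress, was at 0.043 to 0.103 FPKM in Lck-cre samples and at 0.0413 to 0.0506 FPKM in controls, with overlapping groups (exact permutation p = 0.171).

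Of the 12 hydrolases and saposins, 2 (16.7%) rose and 0 fell by limma (3 rose and 0 fell at an unadjusted p under 0.05). That share of rises lies near the 15.4% of all genes tested. Gusb (chromosome 5, minus strand, 130017852 to 130031890), the beta-glucuronidase, lay at 16.0, 14.6, 15.6 and 17.2 FPKM in Lck-cre replicates 5 to 8, against 13.5, 12.2, 12.7 and 12.3 FPKM in control replicates 1 to 4. The log2 change was 0.31 (SE 0.07, adjusted p = 0.0162 by limma), and the call ended without control replicates 1 or 2 or Lck-cre replicate 5 (adjusted p of 0.0529 to 0.0547). Gla (chromosome X, minus strand, 133488898 to 133501874), the alpha-galactosidase A that is lacking in Fabry disease, lay at 2.45, 2.01, 2.40 and 2.43 FPKM in Lck-cre replicates 5 to 8, against 1.54, 1.68, 1.72 and 1.80 FPKM in control replicates 1 to 4. Both were separated between the groups in all 8 samples, with Lck-cre replicate 6 nearest the controls. The log2 change of Gla was 0.37 (SE 0.10, adjusted p = 0.0313 by limma). That call ended without any 1 of the samples other than Lck-cre replicate 6 (adjusted p of 0.0514 to 0.127), with TPM values (0.057) and with no filter (0.0819).

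The cathepsins and the more abundant enzymes were not called. Ctsd, the aspartic protease cathepsin D, lay at 200, 252, 235 and 181 FPKM in Lck-cre replicates 5 to 8, against 256, 220, 259 and 220 FPKM in control replicates 1 to 4. The groups overlapped, and the log2 change was -0.15 (95% confidence interval -0.41 to 0.12). The 5 cathepsins summed to 370 to 480 FPKM in Lck-cre samples and 419 to 477 FPKM in controls. Psap is cut into the saposins that help hydrolases reach sphingolipids. It had the highest FPKM of the set, at 504 ± 39.1 and 527 ± 28.7 FPKM in Lck-cre and control cells (SD, n = 4 each). By mean coverage per base Ctsd was above Psap, at 1170 to 1670 against 815 to 990 in Lck-cre samples. In controls these ranges were 1490 to 1840 and 856 to 1020. Psap passed as lower with quantile normalization (log2 change -0.22, adjusted p = 0.0422 by limma) and under no other setting. Neu1, the lysosomal sialidase, had a log2 change of -0.14 (95% confidence interval -0.29 to 0.02) and passed as lower with TPM values (-0.21, adjusted p = 0.0447 by limma). For the 10 enzymes and saposins that were not called, the 95% intervals together ran from -0.41 to 0.33. Reads of Ctsb and Ctsz can be shared with Fdft1 and Nelfcd on the opposite strand, and those of Glb1 with Tmppe on the same strand, since these genes overlap and no source used here tells whether counting used strand.

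In the V-ATPase, 3 of 8 tested V1 genes rose, against 0 of 5 in V0 and 0 of 2 accessory genes by limma, and 0 fell in any of the 3 groups. At an unadjusted p under 0.05 the counts were the same. Over the pump as a whole 3 of 15 tested genes rose, beside a share of 15.4% over all genes tested. With TPM values Atp6v1h was the only V-ATPase gene of the set that rose, and Atp6v0b, of V0, fell. Whether V1 and V0 differed from each other was not tested. Atp6v1h (chromosome 1, plus strand, 5140241 to 5232752), the H subunit, which restrains ATP hydrolysis by free V1, lay at 23.7, 22.8, 25.2 and 23.2 FPKM in Lck-cre replicates 5 to 8, against 18.3, 18.7, 20.2 and 18.6 FPKM in control replicates 1 to 4. The groups were well apart, with a log2 change of 0.32 (SE 0.06, adjusted p = 0.0115 by limma). The call ended without control replicate 1 or Lck-cre replicate 5 (adjusted p of 0.0544 and 0.0546), the females, which is in effect 1 comparison of the males. With any 1 sample left out its log2 change stayed at 0.29 to 0.35.

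Atp6v1c1 (chromosome 15, plus strand, 38662177 to 38692690), the C subunit, a stalk protein that leaves the complex when V1 and V0 come apart, lay at 19.7, 18.9, 20.7 and 18.7 FPKM in Lck-cre replicates 5 to 8, against 16.6, 15.6, 17.8 and 13.7 FPKM in control replicates 1 to 4. Its log2 change was 0.29 (SE 0.09, adjusted p = 0.0367 by limma). Atp6v1a (chromosome 16, minus strand, 43905765 to 43960068), the catalytic A subunit, lay at 17.1, 16.0, 16.5 and 16.7 FPKM in Lck-cre replicates 5 to 8, against 13.6, 14.2, 15.3 and 13.4 FPKM in control replicates 1 to 4. In neither gene did the groups overlap. The log2 change of Atp6v1a was 0.23 (SE 0.07, adjusted p = 0.0375 by limma). Both calls ended when control 1, 2 or 4 or Lck-cre 5, 7 or 8 was left out (adjusted p of 0.0603 to 0.0973 for Atp6v1c1 and 0.0754 to 0.142 for Atp6v1a) and with TPM values (0.0652 and 0.11), and that of Atp6v1a also with quantile normalization (0.051).

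The other V1 subunits went both ways without a call. Atp6v1b2, the B subunit that forms the ATPase ring with subunit A, lay at 28.6, 33.2, 29.9 and 30.5 FPKM in Lck-cre replicates 5 to 8, against 33.0, 33.0, 33.1 and 33.1 FPKM in control replicates 1 to 4. Only Lck-cre replicate 6 lay above the controls, and the log2 change was -0.11 (95% confidence interval -0.25 to 0.02, adjusted p = 0.182 by limma). Atp6v1d, of the central rotor, lay at 22.6 to 24.9 FPKM in Lck-cre samples and 25.1 to 26.8 FPKM in controls, without overlap (log2 change -0.09, adjusted p = 0.258 by limma). Atp6v1e1, Atp6v1f and Atp6v1g1 had log2 changes of 0.12, 0.16 and 0.00.

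In V0, Atp6v0b, a proteolipid of the proton-carrying ring, lay at 74.2, 79.4, 73.6 and 73.8 FPKM in Lck-cre replicates 5 to 8, against 88.0, 78.2, 79.7 and 84.5 FPKM in control replicates 1 to 4. The groups overlapped through Lck-cre replicate 6. The log2 change was -0.13 (95% confidence interval -0.27 to 0.00, adjusted p = 0.132 by limma), and it passed as lower with TPM values (-0.21, adjusted p = 0.0382) and with quantile normalization (-0.19, adjusted p = 0.0389). Atp6v0c, the main ring proteolipid, averaged 169 ± 9.09 and 154 ± 9.23 FPKM in Lck-cre and control cells (SD, n = 4 each). This was the highest FPKM in the pump, while by mean coverage per base Atp6v0c and Atp6v1g1 overlapped in both groups. Reads of Atp6v0c can be shared with the pseudogenes Atp6v0c-ps1 and Atp6v0c-ps2. Atp6ap2, the prorenin receptor, an accessory subunit, lay at 42.3, 42.4, 42.0 and 38.2 FPKM in Lck-cre replicates 5 to 8, against 42.1, 38.3, 44.7 and 37.6 FPKM in control replicates 1 to 4, and these values overlap throughout. The 16 V-ATPase genes summed to 763 to 846 FPKM in Lck-cre samples and 745 to 827 FPKM in controls. For the 12 V-ATPase genes tested and not called, the 95% intervals of the log2 change together ran from -0.27 to 0.36.

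Where the pump has paralogous subunits, DP thymocytes of both groups held RNA of few of them. The a subunit, which targets the pump to a membrane, came from Atp6v0a2, a form known from the Golgi and endosomes, at 48.6 ± 0.451 and 49.4 ± 1.16 FPKM in Lck-cre and control cells (SD, n = 4 each), and from Tcirg1, which encodes the a3 form known from lysosomes, at 43.0 to 62.5 FPKM in Lck-cre samples and 40.4 to 59.3 FPKM in controls. Atp6v0a1, the ubiquitous a1 form, stood at 0.04 to 0.0832 FPKM in Lck-cre samples and 0.0303 to 0.051 FPKM in controls, and Atp6v0a4, a kidney form, was listed at 0 in all samples. Of the tissue-restricted forms, Atp6v0d2, Atp6v0e2, Atp6v1b1, Atp6v1c2, Atp6v1e2 and Atp6v1g3 were at or near 0, while Atp6v1g2, a form known from neurons, lay at 2.54 to 3.12 FPKM in Lck-cre samples and 1.39 to 3.25 FPKM in controls.

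**Figure D4:**
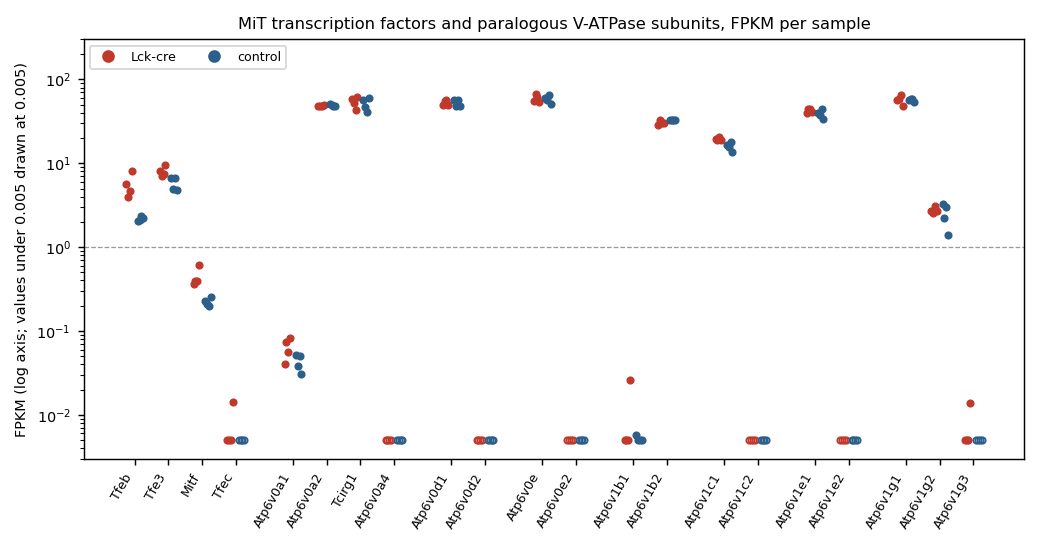
FPKM of each sample on a log axis for the 4 MiT factors and for V-ATPase subunits with paralogs, Lck-cre in red and control in blue, with values under 0.005 drawn at 0.005. Atp6v0a2 and Tcirg1 stand near 50 FPKM and Atp6v0a1 near 0.05, and among the MiT factors Tfeb shows the widest gap between groups.

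The 7 genes that rose differed in which Lck-cre sample stood out. Lck-cre replicate 6 was the sample nearest the control mean in 6 of the 7, and replicate 8 in the other, while replicates 5, 7 and 8 were farthest in 2, 2 and 3 of them. Over the 34 tested genes the median coefficient of variation was 7.01% in Lck-cre cells and 6.6% in controls, and in Tfeb it was 31.8% and 6.74%. Of the 5 genes of the set on chromosome X (Tfe3, Lamp2, Gla, Atp6ap1 and Atp6ap2), 2 rose, beside 15.4% of all genes tested. The share over all genes of chromosome X was not computed, so the count is not read as a trait of that chromosome. With males only, Tfeb was the 1 gene of the set called (log2 change 1.09, adjusted p = 0.0427 by limma), in a comparison of 3 against 3 samples in which 5.28% of all genes passed.

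Other genes of the same pathways were taken from 7 lists with 157 entries, of which 156 were found and 134 were tested. Of these 134, 12 (8.96%) rose and 12 (8.96%) fell by limma, 17.9% in all, below the 25.8% of all genes, with a median log2 change of 0.031. With TPM values 7 rose and 21 fell. The lists were chosen with earlier results of these data known.

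**Figure D5:**
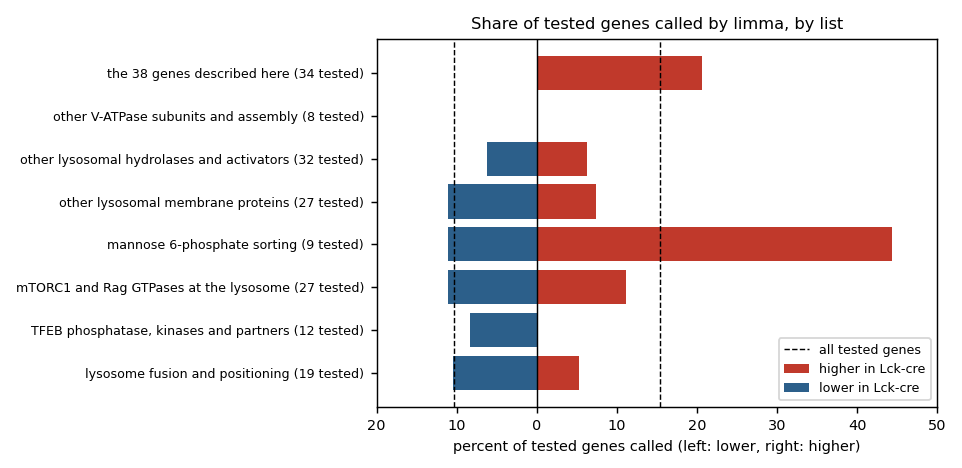
Share of the tested genes of each list that limma called lower (blue, to the left) or higher (red, to the right) in Lck-cre cells, with dashed lines at the shares over all genes tested, 10.4% and 15.4%. The mannose 6-phosphate sorting list, with 4 of 9 higher, is the 1 pathway list that passes the dashed line for rises.

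Genes for mannose 6-phosphate sorting, the route that tags new hydrolases in the Golgi and carries them to lysosomes, held the most rises: 4 of 9 rose and 1 fell. Gnptg, the gamma subunit of the phosphotransferase that adds the tag, lay at 28.1, 29.2, 32.1 and 33.3 FPKM in Lck-cre replicates 5 to 8, against 25, 22.7, 23.6 and 22.7 FPKM in control replicates 1 to 4 (log2 change 0.38, adjusted p = 0.011 by limma). The groups did not overlap, and the call held under all 17 alternatives. Gga2, an adaptor for the receptor's exit from the Golgi, averaged 8.03 ± 1.19 and 5.02 ± 0.547 FPKM in Lck-cre and control cells (SD, n = 4 each, log2 change 0.62), while its relative Gga3 averaged 41.8 ± 2.94 and 51.9 ± 4.12 FPKM (log2 change -0.31). M6pr, the cation-dependent receptor, and Igf2r, the cation-independent one, had log2 changes of 0.02 and -0.09. The call of Gga2 ended without control replicate 1 or Lck-cre replicate 5 (adjusted p of 0.0517 and 0.0511), and that of Gga3 when control 1 or 2 or Lck-cre 5 or 7 was left out (0.0549 to 0.0904).

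Other lysosomal membrane proteins rose in 2 of 27 cases and fell in 3. Tpcn1, a sodium and calcium channel of endosomes and lysosomes, lay at 38, 44.6, 39.1 and 37.5 FPKM in Lck-cre replicates 5 to 8, against 55.6, 54.0, 50.8 and 53.4 FPKM in control replicates 1 to 4 (log2 change -0.42, SE 0.07, adjusted p = 0.00817 by limma). The groups did not overlap, and the call held under all 17 alternatives. Slc38a9, the arginine sensor that signals to mTORC1 from the lysosome, averaged 15.0 ± 2.25 and 20 ± 2.16 FPKM in Lck-cre and control cells (log2 change -0.41, n = 4 each), a call that ended without control replicates 1 or 2 or Lck-cre replicate 5 (adjusted p of 0.0533 to 0.0594). Tmem192 rose (log2 change 0.39), a call lost when control 1, 2 or 4 or Lck-cre 5 or 7 was left out (adjusted p of 0.0744 to 0.0893). Cd68, a macrosialin that is also a macrophage marker, lay at 7.93, 7.15, 7.55 and 11.4 FPKM in Lck-cre replicates 5 to 8, against 6.32, 5.74, 5.11 and 5.81 FPKM in control replicates 1 to 4 (log2 change 0.51). Its highest sample, replicate 8, was also highest in the 12 macrophage markers, whose part in this value was not tested, and the call ended without any control sample or without Lck-cre replicates 5 or 7 (adjusted p of 0.0502 to 0.0756).

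Among 32 other hydrolases and activators 2 rose and 2 fell. Scpep1, a serine carboxypeptidase, lay at 1.15 to 1.62 FPKM in Lck-cre samples and 0.464 to 1.02 FPKM in controls (log2 change 0.66), and passed the minimum mainly through the Lck-cre group. Galc, the galactosylceramidase, averaged 2.18 ± 0.197 and 1.56 ± 0.101 FPKM in Lck-cre and control cells (log2 change 0.38). Idua, which cuts glycosaminoglycans, fell, with a log2 change of -0.36. None of these 3 overlapped between groups, and all 3 calls ended without control replicates 1 or 2 or Lck-cre replicate 5. Those of Scpep1 and Galc also ended without Lck-cre replicates 7 or 8, and that of Galc without control replicate 4. The adjusted p then lay at 0.0524 to 0.1 for Scpep1, 0.0514 to 0.108 for Galc (0.0504 with TPM values) and 0.0595 to 0.0912 for Idua.

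Genes of mTORC1 and the Rag GTPases at the lysosome rose in 3 and fell in 3 of 27 cases. Rheb, the small GTPase that activates mTORC1, averaged 28.4 ± 0.877 and 24.1 ± 1.17 FPKM in Lck-cre and control cells (SD, n = 4 each, log2 change 0.23). Lamtor5, a subunit of the Ragulator scaffold, had a log2 change of 0.26. Sesn1, a leucine-responsive inhibitor of the pathway, fell (-0.35). These calls ended when control 1 or 2 or Lck-cre 5 or 7 was left out, and also without control replicate 4 for Lamtor5 and without control replicate 3 or Lck-cre replicate 8 for Sesn1. The adjusted p then lay at 0.0651 to 0.104 for Rheb, 0.0742 to 0.148 for Lamtor5 and 0.0631 to 0.128 for Sesn1, and Rheb and Lamtor5 were not called with TPM values (0.08 and 0.0944), nor Lamtor5 with quantile normalization (0.0659).

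Among kinases, phosphatase subunits and partners of TFEB, 0 of 12 rose and 1 fell by limma, while 1 rose and 3 fell at an unadjusted p under 0.05. Gsk3b, a kinase that phosphorylates TFEB, averaged 22.3 ± 1.03 and 27.9 ± 2.47 FPKM in Lck-cre and control cells (log2 change -0.31), a call that ended without control replicates 2 or 4 or Lck-cre replicate 7 (adjusted p of 0.0506 to 0.0604). Ppp3ca, Ppp3cb and Ppp3r1, of calcineurin, the phosphatase of TFEB, had log2 changes of 0.18 (95% confidence interval -0.05 to 0.41), -0.05 and 0.01, and none was called. In fusion and positioning, 1 of 19 rose and 2 fell. Arl8b, which couples lysosomes to kinesin, rose (log2 change 0.22), while Plekhm1, an adaptor of the HOPS tether, and Borcs8, of the BORC complex that recruits Arl8, fell (-0.35 and -0.31). The call of Plekhm1 ended without control replicate 1 or Lck-cre replicate 5 (adjusted p of 0.0648 and 0.065). That of Arl8b ended when control 1, 2 or 3 or Lck-cre 5, 7 or 8 was left out (0.0743 to 0.174) and with TPM values, median-of-ratios scaling or quantile normalization (0.0774 to 0.168), and that of Borcs8 without any 1 sample other than Lck-cre replicate 6 (0.0674 to 0.135). Of 8 other V-ATPase subunits and assembly factors 0 rose and 0 fell by limma, with 1 in each direction at an unadjusted p under 0.05. Dmxl1, of the rabconnectin complex that assembles the pump, had the smallest p of these, at 5.45 ± 0.708 and 7.09 ± 0.989 FPKM in Lck-cre and control cells (log2 change -0.35, adjusted p = 0.0574 by limma), and passed as lower with TPM values and with no sex term (adjusted p of 0.0416 and 0.045).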

How the data were processed

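RNA of 8 thymocyte samples was extracted with the RNeasy Mini Kit and handled by BGI Americas, per the labels. Per the submitters' processing notes the tools were HISAT and Bowtie2. No source used here gives their versions, the quantifier, the annotation, the build or the strandedness. The authors' values, per the file headers, are FPKM, TPM (which sums to 1000000 in each sample) and a mean read coverage per base. The FPKM sum was 437778 to 457145 in Lck-cre samples and 413835 to 437426 in controls. Entries that share a gene ID were summed, giving 55359 genes.

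The tables hold no counts, so the planned fallback was used. A gene was tested where 4 or more samples reached 1 FPKM. Values were put on the log2(FPKM + 0.5) scale and fitted in limma 3.58.1 (R 4.3.3) by genotype with sex as a covariate, with variances moderated along a trend. The two-sided p-values were adjusted by Benjamini-Hochberg over all 12337 genes, and an adjusted p under 0.05 was a call. A log2 change on this scale understates that of low genes. Genes under the minimum were compared by an exact two-sided permutation test over all 70 assignments. The fit was tested on simulated data. Of 100 genes given a log2 change of 0.5, 72% were called, and of 100 given a change of 1, 99%. Among 12137 unchanged genes 10 were called. Changes under 0.5, the size of most calls in the set, were not simulated. Python 3.11.15 and pandas 2.3.3 made the summaries. Folds are ratios of mean FPKM.

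The 38 genes, the pathway lists and the markers were chosen with earlier results of these data known. Values of every sample are given for each gene called and, in roles with none, the gene with the smallest p. From each pathway list the 2 called genes with the smallest p in each direction are named, or the 1 with the smallest p where none passed. Genes that this rule names but the text does not are not reported here. Flcn, Fnip2, Mitf, Ctsd, Psap, Neu1, Atp6v1b2 and other genes beyond this rule were chosen after their values were seen.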

Additional observations from a re-analysis of the deposited data

Results flagged for a closer look

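In 7 of 116 sets of 4 samples (2 groups for each gene named), 1 sample lay far from the other 3 by Dixon's ratio of gap to range at its 95% critical value, which chance gives in about 1 in 20 sets. Flcn lay at 27.6 FPKM in Lck-cre replicate 5, against 25.5 to 25.8 FPKM in the other Lck-cre samples. Lck-cre replicate 6 stood apart in Gla, at 2.01 FPKM against 2.40 to 2.45 FPKM, and in Atp6v0b, at 79.4 FPKM against 73.6 to 74.2 FPKM, in both cases on the side of the controls. Lck-cre replicate 8 stood apart in Atp6ap2, at 38.2 FPKM against 42.0 to 42.4 FPKM, and in Mitf, at 0.616 FPKM against 0.36 to 0.397 FPKM. Control replicate 1, the female of its group, stood apart in Idua, at 11.9 FPKM against 8.74 to 9.18 FPKM, and in Gga3, at 58.0 FPKM against 49.0 to 50.4 FPKM.

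The effect of genotype was not called different between sexes in any gene by an interaction term in limma (0 of 12337 genes, 336 at an unadjusted p under 0.05, of which 1 among the 34 genes of the set), with 1 female in each group.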

How the results depend on the processing

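Of the 7 rises in the set, 4 passed with TPM values, 3 with no filter on low values and 1 with males only, and 3 genes (TPM) or 2 (quantile normalization) fell in place of 0. With median-of-ratios scaling, pseudocounts of 0.1 and 1, a filter on the mean and no sex term the counts stayed at 7 and 0. No change of a called gene turned its direction under any alternative. Without 1 sample, 1 to 7 of the set rose and 0 to 1 fell, and 647 to 3889 of all genes were called, against 3180 with all samples. With no filter 1056 of 28851 genes were called, and with males only 652. Of the pathway lists 24 genes were called, 6 with no filter, 3 with males only and 3 to 32 without 1 sample, alternatives added after the data were seen. Of the 4 genes under the minimum, 2 did not overlap between groups, 1 with TPM values and 2 to 3 without 1 sample. Without control replicate 1 or Lck-cre replicate 5 the other female is uninformative, so 3 males are compared with 3. No paired analysis was possible because the groups share no replicate numbers. Count-based tests were not run, since the tables hold no counts, and depth is unknown, so the precision of low genes such as Gla rests on the spread between samples.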
